A study of Mus musculus with 4 samples.

Results

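Allantois-like mesoderm of the E8.0 mouse embryo was described here as the cells that carried Tbx4 together with other transcripts of the extraembryonic posterior mesoderm. A retained cell of the E8.0 library was a member when it had 1 or more raw UMIs of Tbx4, 1 or more UMIs of at least 2 of the 4 genes Pitx1, Phlda2, Plac1 and Hoxa10, and 0 UMIs of the endothelial cadherin gene Cdh5. Of 7577 retained E8.0 cells 1290 met this rule, or 17.0% (exact Clopper-Pearson 95% interval 16.2 to 17.9%), out of 22625 retained cells in the 4 libraries of the series. The levels of these 6 genes chose the members, so they are given below as a description and support nothing.

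The libraries were droplet single-cell RNA-seq of sorted GFP+ DAPI- cells from Mesp1Cre;Rosa26-GFPflox/+ embryos of the Swiss Webster strain. Each library sampled its own stage, from E8.0 through E8.25 and E9.5 up to E10.5. All 4 groups share this genotype, in which Cre made from the Mesp1 locus switches on GFP permanently in cells that passed through a Mesp1-expressing state and in their descendants, and no other allele or agent was used. Embryos of both sexes were pooled, and sex was not genotyped. The tissue of both early stages was labelled as the upper part of the body, and the later tissue as the pharyngeal apparatus with or without the heart. The E8.0 library held 168407965 UMIs in 7581 deposited cells, with a median of 21663 UMIs per retained cell, and the medians of retained cells in the other 3 libraries were between 15611 and 35467 UMIs. Of the members' cell barcodes, 4 also occurred in the E8.25 library, 9 in the E9.5 library and 13 in the E10.5 library. With 1 library per stage there is no replicate and therefore no test here, and all intervals cover counting error only.

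The allantois is the outgrowth of extraembryonic mesoderm that arises from the posterior primitive streak, crosses the exocoelomic cavity and fuses with the chorion, after which its core is remodelled into the vessels of the umbilical cord. Its distal cells carry the adhesion molecule VCAM1, which binds α4 integrin on the chorion, its outer layer is an epithelium-like mesothelium, and its inner cells make endothelium in place. Tbx4 encodes a T-box transcription factor of the allantois and hindlimb, Pitx1 a homeodomain factor of the hindlimb and posterior lateral mesoderm, Hoxa10 a homeodomain factor of the posterior body, Phlda2 an imprinted pleckstrin-homology protein that restrains placental growth, and Plac1 an X-linked placental membrane protein.

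Promoters of Tbx4 and Plac1 are shown because the cells were picked for reading these genes together. In RefSeq's GRCm38.p6 annotation Tbx4 lies on chr11:85886367-85916097, Pitx1 on chr13:55825044-55836190, Phlda2 on chr7:143501545-143503145, Plac1 on chrX:53069993-53240110 and Hoxa10 on chr6:52231197-52240854. The 300 bases from 250 before to 50 after each listed start were searched on both strands for a T-box site (AGGTGTGA), a bicoid-class homeobox site (TAATCC) and a posterior Hox and Cdx site (TTTATG), none of which contains another. Among 32851 promoters of the same length, 1.28% held the T-box letters, 7.06% the bicoid-class letters and 11.9% the posterior Hox letters. The listed Tbx4 promoter held none of the 3. It lies inside the span of the gene given above, and the bases at the 5′ end of that span were not searched. Pitx1 had no promoter entry and was not searched. Of the entries for Hoxa10, Phlda2 and Plac1, only a Plac1 promoter had a match, TAATCC beginning 210 bases before the start, set in capitals in the sequence. The 250 bases before the start, 5′ to 3′ on the gene's strand, were as follows for Tbx4 (chr11:85896515-85896764, plus strand) and for this Plac1 promoter (chrX:53114406-53114655, minus strand).
Tbx4: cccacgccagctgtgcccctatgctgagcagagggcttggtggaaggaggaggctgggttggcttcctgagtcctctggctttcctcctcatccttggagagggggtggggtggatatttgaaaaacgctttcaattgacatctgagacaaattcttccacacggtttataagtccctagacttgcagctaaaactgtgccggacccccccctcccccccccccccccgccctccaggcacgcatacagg
Plac1: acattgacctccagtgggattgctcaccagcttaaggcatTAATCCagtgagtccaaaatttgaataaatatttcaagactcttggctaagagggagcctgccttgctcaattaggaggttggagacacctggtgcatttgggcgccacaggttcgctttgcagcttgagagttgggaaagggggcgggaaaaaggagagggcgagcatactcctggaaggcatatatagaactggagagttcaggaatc

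Among the members, Tbx4 was at 125 CPM, the count per 1000000 UMIs pooled over all members, and at 3.1 CPM in the 6287 other E8.0 cells. Within single members Tbx4 had a median of 3 UMIs and a maximum of 13, with 340 members at 1 UMI, 627 at 2 to 4 and 323 at 5 or more. Of the members 910 carried all 4 further markers, 285 carried 3 and 95 carried exactly 2. Pitx1 was detected in 94.2% of members and 17.4% of the other cells, Plac1 in 88.0% and 19.2%, and Hoxa10 in 81.0% and 7.06%. Phlda2 was detected in all members but also in 83.5% of the other cells, so that a UMI of Phlda2 selected little. Its level separated the cells further, at 4462 CPM in members and 614 CPM in the others. In erythroid-like cells, which should lack these genes, 3.0% had a Tbx4 UMI, 6.0% a Pitx1 UMI, 10.0% a Plac1 UMI, 2.0% a Hoxa10 UMI and 84.0% a Phlda2 UMI, at a median depth of 32898 UMIs against 25735.5 in members. The other E8.0 cells had a median depth of 20887 UMIs.

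**Figure D1:**
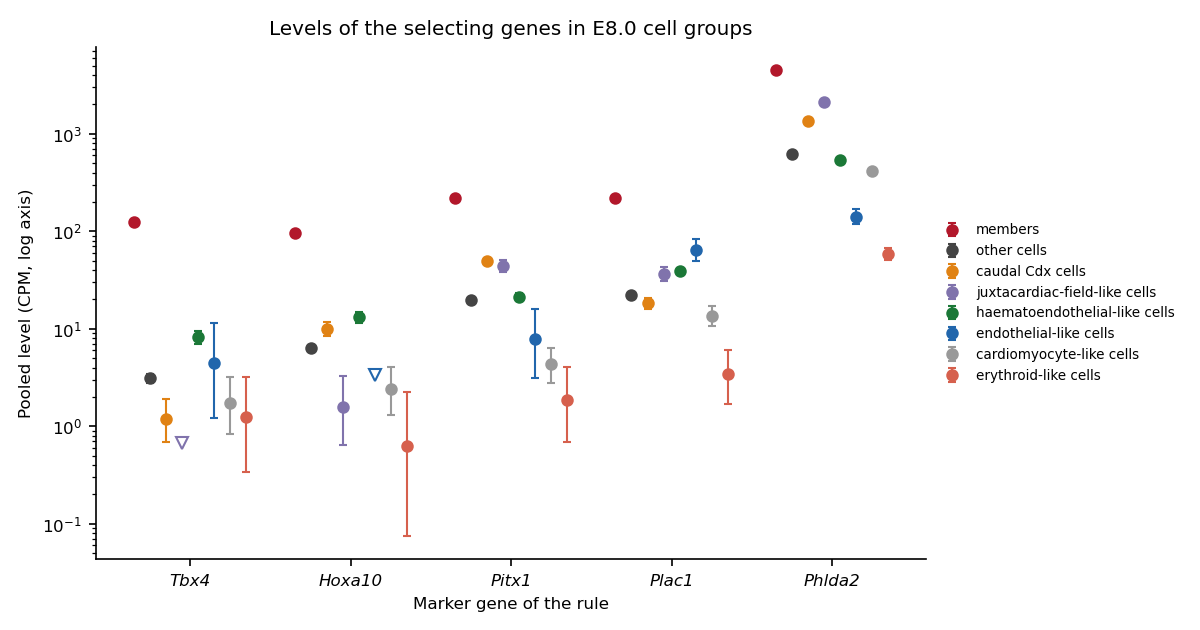
Pooled level in CPM (log axis) of the 5 marker genes of the rule in members and in 7 other E8.0 cell groups. Points are pooled levels, bars are exact Poisson 95% intervals, and open triangles mark the level that 3 UMIs would give in a group with none. Members sit above the 7 plotted groups at each of these selecting genes, and Phlda2 at 4462 CPM is followed by the juxtacardiac-field-like cells at 2129 CPM.

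Cells just outside the rule differed from members in more than the selecting genes, given here with no test. The 121 cells with Tbx4 and exactly 1 of the 4 markers had 33.2 CPM of Hand1, 297 CPM of Cdkn1c and 1.03 CPM of Hoxc10, against 155, 575 and 6.5 CPM in the 95 members that carried exactly 2. These cells also held 288 CPM of the cardiac gene Tnnt2 and 1221 CPM of the embryonic globin gene Hbb-bh1, and the 95 members just inside the threshold held 68.5 and 977 CPM. In members with all 4 markers Tnnt2 was at 14.6 CPM and Hbb-bh1 at 112 CPM. In the same order of sets, 76.0%, 68.4% and 78.8% of cells had a Hbb-bh1 UMI, and 26.4%, 21.1% and 17.1% a Tnnt2 UMI. The pooled Hbb-bh1 levels thus do not mean that more cells near the threshold carried it. A further 460 cells had Tbx4 and Cdh5 at 0 but 3 or more of the 4 markers, and these had 394 CPM of Hand1, 147 CPM of Cdx2 and 15.9 CPM of Hoxc10. The 97 cells that met the rule except for a Cdh5 UMI had 591 CPM of Etv2 and 303 CPM of Hhex, above the 319 and 59.3 CPM of members.

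When the E8.0 library was clustered without the 6 selecting genes, members concentrated in few of its 20 clusters. Cluster 1 held 677 members, which made up 90.4% of its 749 cells, and was led by Spin2c, Cdkn1c, Twist2, Pdgfa, Pcgf5 and Morc4. Cluster 5, led by the haematoendothelial regulators Hhex, Etv2 and Tal1 with Gja4 and Gadd45g, held 284 members of 508 cells. Cluster 16 held 182 members of 222 cells and had a median of 11251.5 UMIs per cell. The caudal cluster 2, led by Cdx1, Hoxaas3 and Cdx4, held 88 members of 682 cells. The other 13 clusters with members held at most 12 each.

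Of 11688 genes at 1 CPM or more over all retained E8.0 cells, with the selecting genes left out, 328 were at least 2-fold higher in members than in the other cells and 1032 were at least 2-fold lower, or 2.81% and 8.83%. Since the members were picked from these same transcriptomes, these counts are a description. The 20 genes with the largest ratio were headed by posterior Hox genes: Hoxd11, Hoxc11, Hoxc10, Hoxd10, Hoxd13, Hoxa11, Hoxa13, Hoxa9 and Hoxc9 were among them. The others were the chemokine gene Cxcl14, Coro2a, the epithelial surface gene Plet1, 2610528A11Rik, Klf14, Tbx2, Gm53, Nxf7, Bace2, the desmosome-associated gene Perp and Pde9a. The 10 with the smallest ratio were Hbb-bt, Lyve1, 8430408G22Rik, Ripply2, Igf1, Mfng, F10, Ctla2a, Ttr and Gpm6b, which include genes of red cells, endothelium, somites and yolk-sac endoderm. The last of these had few UMIs in members, such as 2 UMIs of Hbb-bt (log2 ratio -5.44, 95% interval -8.49 to -3.57).

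Hox genes lie in 4 clusters in which the paralogue number runs from the anterior to the posterior end of the body axis. Of 32 Hox genes compared, Hoxa10 left out, 20 were at least 2-fold higher in members, 3 were at least 2-fold lower and 9 were neither, with a median log2 ratio of 1.98 against -0.02 over all genes. Hoxa2 and Hoxb1, among the lower genes, lay at the anterior end, with log2 ratios of -1.87 and -2.55, while Hoxb2 (-0.56) and Hoxd1 (0.58) were under 2-fold. Paralogues 3 and 4 lay between -0.27 for Hoxd3 and 0.80 for Hoxd4. Further along HoxA, Hoxa5 was at 0.80, Hoxa7 at 2.70, Hoxa9 at 3.30, Hoxa11 at 3.77 and Hoxa13 at 3.49, with Hoxa11 at 31.8 CPM in members and 2.33 CPM in the other cells. Hoxc10 stood at 43.3 and 2.46 CPM, a log2 ratio of 4.14 (3.97 to 4.31), and Hoxd11 at 8.94 and 0.41 CPM, a log2 ratio of 4.46 (4.04 to 4.90). The HoxB cluster did not reach these ratios, its highest being 2.49 for Hoxb7, and Hoxb9 was at 1.82. Hoxb13 was at 0.03 CPM in members, and Hoxc12 had no UMI in any E8.0 cell, which allows up to 0.09 CPM in members. Of the terminal genes Hoxa13 was at 4.41 CPM, Hoxd13 at 6.57 CPM and Hoxc13 at 0.60 CPM in members, and Hoxd12 at 0.12 CPM. The tissue of this library was labelled as coming from the upper body, and the members carried transcripts of the posterior genes of HoxA, HoxC and HoxD. Leaving Hoxa10 out of the counts does not free the other posterior genes of its use in selection. Members with exactly 2 of the 4 markers, 6.3% with Hoxa10, had 6.5 CPM of Hoxc10, 9.53 CPM of Hoxa11 and 1.3 CPM of Hoxd11. Members with all 4 had 48.5, 33.5 and 9.81 CPM.

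**Figure D2:**
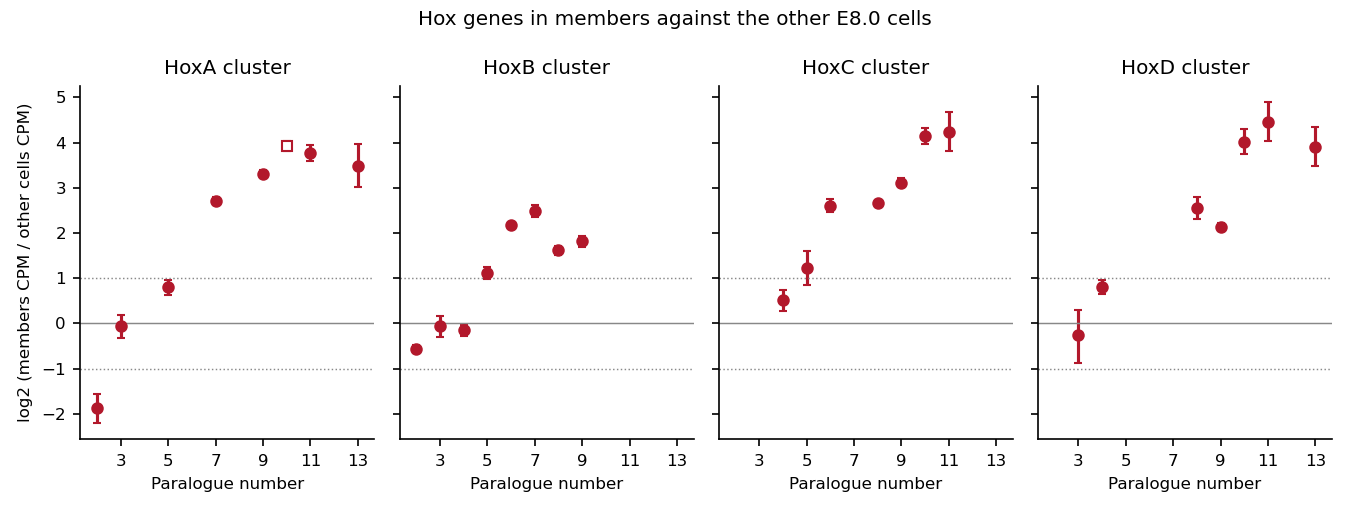
Log2 ratio of pooled CPM, members over the other E8.0 cells, for Hox genes of paralogue 2 and above at 1 CPM or more, by paralogue number in the HoxA to HoxD clusters. Bars are exact 95% counting intervals, dotted lines mark 2-fold, and the open square is Hoxa10, which selected the members. Hoxa2 lies at -1.87, and the plotted genes of paralogues 10 to 13 in HoxA, HoxC and HoxD lie between 3.49 and 4.46.

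Genes of extraembryonic mesoderm were mostly higher in members, and none of those counted selected a member. Of 17 compared, 11 were at least 2-fold higher, 0 at least 2-fold lower and 6 neither (median log2 ratio 1.40). Over all genes 2.81% were higher and 8.83% lower, the shares to set beside this list and the lists below. The 11 include Hoxa11 and Hoxa13, which the Hox list also holds, and Bmp4 (1.08) and Rhox5 (1.02). Hand1, a bHLH factor needed in extraembryonic mesoderm and heart, was at 279 CPM in members and 103 CPM in the other cells (log2 ratio 1.43). The T-box repressors Tbx2 and Tbx3 had log2 ratios of 3.34 and 2.26, the bHLH factor Twist2 2.65 and the mesenchymal repressor Snai1 2.37. Msx1 and Msx2, targets of BMP signalling, had ratios of 1.40 and 1.47. Ahnak and Wnt2, which extraembryonic mesoderm also carries, were at 28.8 and 30.6 CPM in members and 33.7 and 33.8 CPM in the other cells. Ets2 at 0.08 and Twist1 at 0.50 also stayed under 2-fold, as did Foxf1 at 0.68 and Isl1 at 0.89, and Trap1a was under the 1 CPM limit. The juxtacardiac-field-like cells, the comparison group defined by Mab21l2 and Hand1, held more Hand1 (837 CPM), Ahnak (243 CPM) and Wnt2 (154 CPM) than members, and less Twist2 (40.0 CPM), Tbx3 (34.4 CPM) and Tbx2 (3.17 CPM). Of the 5 juxtacardiac field genes compared between members and the other cells, 4 were at least 2-fold higher (Hand1, Bmp4, Snai1 and Tbx20, the last with a log2 ratio of 1.80) and Mab21l2 was at least 2-fold lower, at 1.53 and 8.51 CPM.

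The paralogues of the selecting genes did not share one pattern. Tbx5, the forelimb and heart counterpart of Tbx4, was at 4.02 CPM in members and 6.72 CPM in the other cells, while Tbx2 and Tbx3 were higher, as given above. Pitx3 was at 1.35 and 0.15 CPM. Phlda1 had a log2 ratio of 0.86 and Phlda3 of 0.13. Of 13 limb field genes compared, 2 were at least 2-fold higher, both of them posterior Hox genes (Hoxc10 and Hoxc11), and 4 were at least 2-fold lower, among them the limb growth factor gene Fgf10 (-1.98) and the proximal homeobox genes Meis1 (-2.47) and Meis2 (-1.28). Prrx1, a gene of limb and lateral mesoderm, was at 44.0 and 46.6 CPM, and Shh was at 0.03 CPM in members.

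Genes with a role in the union of allantois and chorion were divided. Of 12 compared, 3 were at least 2-fold higher and 0 at least 2-fold lower (median log2 ratio 0.39). The 3 were Vcam1, at 14.2 CPM in members and 3.43 CPM in the other cells (log2 ratio 2.05, 1.86 to 2.23), the caudal homeobox gene Cdx2, at 174 and 33.2 CPM (2.39), and the R-spondin gene Rspo3, at 89.1 and 26.4 CPM (1.75). The α4 integrin gene Itga4, whose product is the partner of VCAM1 on the chorion, was at 4.62 and 3.41 CPM. Bmp5 and Bmp7, which act together in allantois growth, had log2 ratios of -0.97 and 0.84. The chorionic ligand Wnt7b had no UMI in members, which allows up to 0.09 CPM, while Lef1 and Tcf7, nuclear factors of Wnt signalling, were at 0.19 and 0.58. Dnajb6, a co-chaperone, was at 0.25, the matricellular gene Cyr61 at 0.34 and the RNA-binding protein gene Zfp36l1 at -0.27.

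Vcam1 was confined to few members: 162 of 1290 had a UMI of it, or 12.6%. Those with and without Vcam1 had nearly the same depth, with medians of 25418.5 and 25742.5 UMIs. After every cell was thinned to 10000 UMIs, 93 members still had a Vcam1 UMI and 1111 did not. Of those with Vcam1, 22.6% had an Etv2 UMI (14.6 to 32.4%) against 55.7% of those without it (52.7 to 58.7%). For Kdr the shares were 16.1% and 60.5%, for Cdx4 11.8% and 44.6%, and for Tal1 3.23% and 19%. In the other direction, Wnt2 was found in 51.6% of thinned members with Vcam1 and 18.4% without it, Perp in 55.9% and 17.6%, and the growth factor gene Pdgfa in 80.6% and 46.3%. For Hoxc10 the intervals of these shares overlapped, at 24.7% (16.4 to 34.8%) and 31.1% (28.4 to 34.0%). Its pooled levels at full depth did not, at 30.6 CPM (25.5 to 36.3) with Vcam1 and 45.2 CPM (42.8 to 47.7) without it. Among members with Vcam1, cells with Etv2, Kdr, Tal1 or Cdx4 were thus less frequent, and more carried Wnt2, Perp and Pdgfa.

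Vascular genes did not share one direction. Etv2, the ETS factor that starts the endothelial and blood programme, was at 319 CPM in members and 111 CPM in the other cells (log2 ratio 1.53, 1.49 to 1.56), its target Kdr, the VEGF receptor, at 132 and 60.8 CPM (1.12, 1.07 to 1.17), and the ligand Vegfa at 62.0 and 20.4 CPM (1.60, 1.52 to 1.69). These were the 3 of 21 vascular and haematoendothelial genes that were at least 2-fold higher. Gata2 (0.94) and Sox17 (0.93) were just under 2-fold, Sox7 was at 0.44 and Tal1 at 0.39. Of the 21 genes 8 were at least 2-fold lower: Flt1 (-1.47), Pecam1 (-1.22), Tek (-1.38), Esam (-1.72), Tie1 (-2.31), Cd34 (-2.34), Erg (-2.60) and Emcn (-3.51). Of the 6 compared genes of the endothelial marker list 5, all but Kdr, were at least 2-fold lower, among them Cldn5 (-2.81). The rule required Cdh5 at 0, which by itself removes formed endothelium from the members. The higher Etv2 and Kdr did not hold for all members, because in members of cluster 1 alone the log2 ratio was -0.17 for Etv2 and 0.31 for Kdr, 1 of the 21 genes was at least 2-fold higher and 14 were at least 2-fold lower. The reference mattered as well: against other cells without the endothelial-like, haematoendothelial-like and erythroid-like cells, 7 of the 21 were at least 2-fold higher, 5 were at least 2-fold lower and the median was 0.19 in place of -0.71. After thinning, and against other cells without near-members, 5 were at least 2-fold higher. Of all 11688 genes, 383 were at least 2-fold higher and 1238 at least 2-fold lower in members of cluster 1. Against the reference without endothelial-like, haematoendothelial-like and erythroid-like cells, these counts were 353 and 1022.

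In single cells, 842 members had an Etv2 UMI (65.3%), 935 a Kdr UMI (72.5%), 303 a Tal1 UMI (23.5%) and 281 all 3 (21.8%, 19.6 to 24.1%). In 222 members, or 17.2%, none of the 3 was detected. Among the other E8.0 cells Etv2 was found in 30.9%, all 3 genes in 10.8% and none of them in 49.3%. These shares are at full depth, and the other cells were shallower, with a median of 20887 UMIs against 25735.5 in members. The erythroid-like and cardiomyocyte-like groups give no background share for Etv2, because cells with Etv2 that also met the haematoendothelial rule were left out of them. Members with Tal1 differed from those without it after thinning, with 214 members that had Tal1 and 990 that had not: Hand1 was detected in 54.7% and 84.8%, Bmp4 in 15.9% and 54.1%, and Pdgfa in 14% and 56.5%. Hoxa9 was detected in 62.6% (55.8 to 69.1%) and 59.9% (56.8 to 63.0%), with overlapping intervals.

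BMP signalling is needed to form the allantois, and its genes were higher in members on balance. Of 21 compared, 9 were at least 2-fold higher and 1 at least 2-fold lower (median log2 ratio 0.74). Among the ligands Bmp2 (1.11) and Bmp4 (1.08) passed 2-fold and Bmp7 and Bmp5 did not. The receptor genes Bmpr1a (-0.02), Bmpr2 (0.64) and Acvr1 (0.74) and the signal transducers Smad1 (0.05) and Smad5 (-0.13) were under 2-fold, while Smad9, another transducer, was at 1.58 with 3.18 CPM in members. Feedback inhibitors and targets were higher, with 2.06 for Smad6, 1.53 for Smad7, 1.66 for the pseudoreceptor gene Bambi and 1.05 for the transcriptional target Id1, besides Msx1 and Msx2. Id2 was at -0.37 and Id3 at 0.54. The secreted antagonist Grem1 was the gene at least 2-fold lower (-2.94), and Nog, another antagonist, was at 2.22 and 2.67 CPM.

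Of 15 Wnt ligands, antagonists and targets compared, 3 were at least 2-fold higher and 3 at least 2-fold lower. The higher genes were the non-canonical ligands Wnt5a, at 90.5 and 31.9 CPM (log2 ratio 1.5), and Wnt5b (1.58), with Rspo3. The lower ones were Rspo1 (-2.31), the secreted antagonist Sfrp5 (-2.08) and the transcription factor gene Sp5 (-2.71), a target of canonical signalling. Axin2, another target, was at 33.1 and 25.2 CPM, and the streak ligand Wnt3a was at 0.06 CPM in members.

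Caudal genes were divided as well, with 5 of 11 at least 2-fold higher and 3 at least 2-fold lower. Cdx2 was higher, as were Cdx4, another caudal homeobox gene (1.59), Nkx1-2 (2.22), the streak homeobox gene Evx1 (1.84) and Mixl1 (1.57). Cdx1, the remaining caudal homeobox gene, was lower, at 12.4 CPM in members and 30.7 CPM in the other cells, with Fgf8 (-2.49) and the presomitic gene Tbx6 (-2.22). The mesoderm gene T was at 3.96 and 3.54 CPM and Mesp1, the driver of the Cre, at 2.76 and 2.35 CPM, so neither differed by 2-fold at this stage. In members of cluster 1 alone the list turned, with 4 genes at least 2-fold higher, 5 at least 2-fold lower and a median of -0.84 in place of 0.27.

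Imprinted genes, which are read from one parental allele and include many that govern placental growth, held 8 members of the list at least 2-fold higher and 2 at least 2-fold lower among 22 compared, Phlda2 left out (median log2 ratio 0.47). Cdkn1c, which encodes a cell cycle inhibitor and is the neighbour of Phlda2 in its imprinted domain, was at 1454 CPM in members and 312 CPM in the other cells (log2 ratio 2.22, 2.20 to 2.24). Slc22a18 of the same domain had a ratio of 2.27, at 5.88 and 1.22 CPM. Other genes of that domain did not follow, as the antisense RNA gene Kcnq1ot1 was at -0.46 and Ascl2 at -1.07. Peg10 (2.08) and its neighbour Sgce (2.11), the amino acid transporter gene Slc38a4 (2.17), Dlk1 (1.63), Meg3 (1.01) and the scavenging receptor gene Igf2r (1.28) were higher. H19 (0.83), Igf2 (0.60), Mest (0.70) and Peg3 (0.14) were under 2-fold, and Nnat was lower (-2.19).

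Of 10 keratin and mesothelium genes compared, 3 were at least 2-fold higher and 1 at least 2-fold lower. Krt19 (1.96) and the GATA factors Gata4 (1.29) and Gata5 (1.05) were higher, and Cldn6 was lower, with 0.18 CPM in members. Krt8 was at 443 and 237 CPM and Krt18 at 194 and 225 CPM, and the mesothelial genes Wt1 and Upk3b were under 1 CPM. Of 21 smooth muscle and matrix genes, 1 was at least 2-fold higher, the collagen gene Col1a1 at 56.1 and 15.2 CPM (log2 ratio 1.89), and 8 were at least 2-fold lower. The 8 were Tagln (-1.43), Cnn1 (-1.63), Myl9 (-1.86), Tpm1 (-1.12), Col3a1 (-1.76), Lama1 (-1.79), Postn (-1.26) and Tnc (-1.73), which belong to the contractile apparatus and the matrix. Acta2 was at 99.7 and 162 CPM, and the fibronectin gene Fn1 at 305 and 201 CPM. The direction of this list depended on the reference. Against the caudal Cdx cells defined below, 8 of the 21 were at least 2-fold higher in members and 1 at least 2-fold lower (median log2 ratio 0.74). Against the haematoendothelial-like cells, 3 were higher and 2 lower by 2-fold (median log2 ratio 0.14).

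Members did not differ by 2-fold in the genes of proliferation. None of 20 S phase genes and none of 20 G2/M genes reached 2-fold in either direction, with medians of -0.05 and 0.08 on the log2 scale. Of 18 genes of glycolysis and hypoxia, 16 were under 2-fold, with a median of 0.13, and the exceptions were Vegfa and the oxygen sensor gene Egln3, at 36.2 and 12.2 CPM (1.57).

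**Figure D3:**
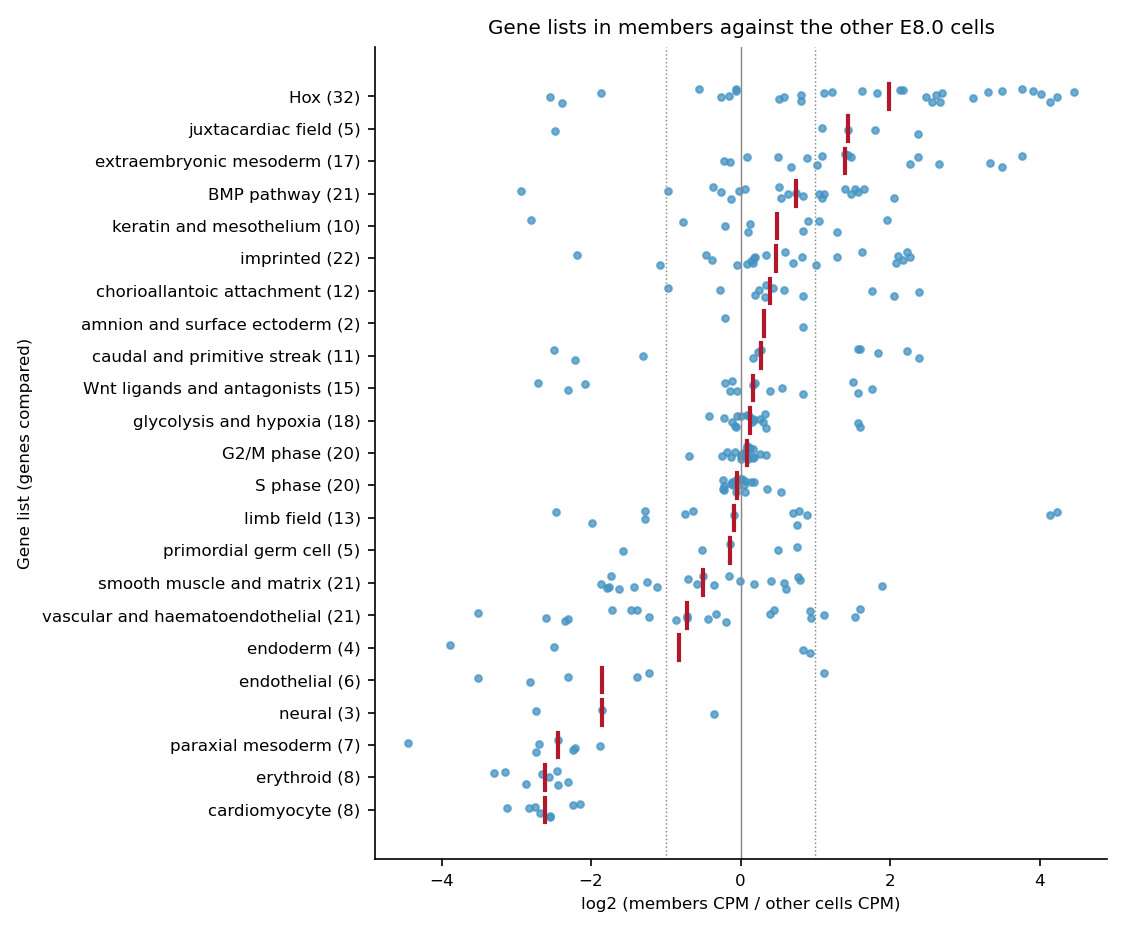
Log2 ratio of pooled CPM, members over the other E8.0 cells, for each gene (dot) of the lists named on the vertical axis, with the number of genes compared in brackets and the list's median as a red bar. Dotted lines mark 2-fold. The Hox list has the highest median, 1.98, and the cardiomyocyte and erythroid lists the lowest, -2.62 and -2.61, while the cell cycle lists lie around 0.

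Markers of other cell types differed by type. All 8 cardiomyocyte genes, all 8 erythroid genes and all 7 paraxial mesoderm genes were at least 2-fold lower than in the other cells. Summed over each list, members had 189 CPM of cardiomyocyte genes (19337 CPM in cardiomyocyte-like cells), 357 CPM of erythroid genes (47860 CPM in erythroid-like cells) and 62.3 CPM of paraxial genes (346 CPM in the other cells). Other sums were higher in members than in the other cells, with 142 and 106 CPM for the endothelial list, in which Kdr was at 132 CPM in members, 34.3 and 25.6 CPM for endoderm, and 10.1 and 8.31 CPM for amnion and surface ectoderm. Against the caudal Cdx cells, 6 of 8 cardiomyocyte genes were at least 2-fold higher in members (median log2 ratio 1.38). The construction of the caudal group favours this, since cells that also met the cardiomyocyte-like rule were left out of it but not of the members. Erythroid genes summed to 205 CPM in caudal Cdx cells and 150 CPM in haematoendothelial-like cells, below the members. All 8 were under 2-fold against the caudal cells (median log2 ratio 0.69). Against the haematoendothelial-like cells 4 were at least 2-fold higher in members and 1 at least 2-fold lower. Cells that also met the erythroid-like rule were left out of these groups too. Trophoblast genes summed to 3.87 CPM in members and 3.92 CPM in the other cells, 7 of the 14 had no UMI in members (Gcm1, Tpbpa, Prl3d1, Prl2c2, Ctsq, Syna and Synb), and Ascl2, the one compared, was at least 2-fold lower. Of 5 primordial germ cell genes compared, 1 was at least 2-fold lower (Prdm1, -1.57) and none higher, and Dppa3 and Nanos3 were at 0.03 and 0.12 CPM. Neither of the 2 amnion and surface ectoderm genes compared, Wnt6 and Epcam, reached 2-fold, and Krt5 had no UMI. Of 4 endoderm genes compared 2 were at least 2-fold lower, Ttr and Apoa1, while Sox17, which endothelium also expresses, was at 0.93 and Epcam at 0.84, and Afp had no UMI. Of 3 neural genes compared 2 were at least 2-fold lower, Sox2 (-1.85) and Pax3 (-2.74), and Foxd3 and Sox10 had no UMI.

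Caudal and haematoendothelial cells of the same library were set against the members in turn. The first was 618 caudal Cdx cells, with UMIs of at least 2 of Cdx1, Cdx2 and Cdx4 and none of Cdh5, which were not members. Members often carried these genes too, with Cdx2 in 87.1%, Cdx4 in 56.0% and Cdx1 in 16.6% of them. Against the caudal Cdx cells 633 genes (5.42%) were at least 2-fold higher in members and 605 (5.18%) at least 2-fold lower, of 11685 compared. The Hox list turned around in part: 9 of 32 genes were at least 2-fold higher, Hoxa11 (3.56), Hoxd11 (3.55), Hoxc11 (3.35), Hoxc10 (3.2) and Hoxd10 (3.16) among them, while 11 were at least 2-fold lower, which reached -3.76 at Hoxb1. Hoxb9 (-0.41), Hoxd9 (-0.05) and Hoxc8 (0.59) were under 2-fold between these cells. Cdkn1c was at 1454 and 133 CPM (log2 ratio 3.46), Twist2 at 85.6 and 11.4 CPM (2.91), Vcam1 at 14.2 and 0.55 CPM (4.68) and Plet1 at 20.7 and 0.21 CPM (6.64). Of 17 extraembryonic mesoderm genes 7 were at least 2-fold higher in members and 0 at least 2-fold lower (median log2 ratio 0.79). Of 21 BMP pathway genes 5 were at least 2-fold higher and 1 at least 2-fold lower (median log2 ratio 0.28). Hand1 (0.57), Bmp4 (-0.04), Msx1 (-0.33) and Msx2 (-0.11) differed by less than 2-fold, and Foxf1 was at -0.82. All 21 vascular genes but 5 were at least 2-fold higher in members, which the construction of this group favours, since a cell that met both the caudal and the haematoendothelial rule was left out.

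The second group was 876 haematoendothelial-like cells, with UMIs of Etv2 and of at least 1 of Kdr, Tal1 and Lmo2, which were not members. Of the members, 716 (55.5%) had both Etv2 and Kdr, so they met this group's rule and were kept out of it as members. Here 453 genes (3.88%) were at least 2-fold higher in members and 860 (7.36%) at least 2-fold lower, of 11684 compared. Of the extraembryonic mesoderm genes 14 of 17 were at least 2-fold higher in members, with Hand1 at 2.86, Bmp4 at 2.35 and Foxf1 at 2.31, and of the Hox genes 24 of 32 were. Of 17 vascular genes outside that group's rule 12 were at least 2-fold lower in members, Emcn most (-5.49), and only Vegfa was at least 2-fold higher (1.71). Members had to have Cdh5 at 0, while 168 of these 876 cells (19.2%) had a Cdh5 UMI. The construction of the groups thus favours lower endothelial genes in members. Both comparisons use the same members, so they are not independent of one another.

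The members themselves fell into 7 sub-clusters when clustered alone, again without the selecting genes. The genes that lead a sub-cluster define it and are not results about it. Sub-cluster 2 (238 cells) was led by Hhex, Tal1, Lmo2, Etv2, Sox18 and Fam212a, and 221 of its cells lay in the library's cluster 5. Its Etv2 level was 1009 CPM and its Hand1 level 80.4 CPM, the lowest Hand1 of the 7. Sub-cluster 4 (176 cells) was led by Vcam1, Perp, Nxf7, Wnk3, the connexin gene Gjb5 and Anxa2. It had 94.5 CPM of Vcam1, and 99 of the 162 members with a Vcam1 UMI were in it. It also had 26.3 CPM of Etv2, 12.2 CPM of Cdx4, 3466 CPM of Cdkn1c and 452 CPM of Hand1. Sub-cluster 3 (227 cells) was led by the keratin genes Krt18 and Krt19, Itm2a, the smooth muscle actin gene Acta2, Bex1 and Krt8. Sub-cluster 7 (101 cells) was led by Hoxaas3, Cdx4, Cdx1, Osr1, Evx1os and Cited1, 73 of its cells lay in the caudal cluster 2, and its Cdkn1c level was 308 CPM.

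Levels of the selecting genes also varied between these 4 sub-clusters. Tbx4 was at 135 CPM in sub-cluster 4, 126 CPM in sub-cluster 3, 110 CPM in sub-cluster 7 and 106 CPM in sub-cluster 2. Phlda2 spanned a wider range, from 2411 CPM in sub-cluster 7 to 8061 CPM in sub-cluster 4, and Plac1 from 102 to 441 CPM in the same pair. Hoxa10 was between 76.8 CPM in sub-cluster 2 and 118 CPM in sub-cluster 7. Over all 7 the extremes lay elsewhere for Tbx4 and Hoxa10, with 197 and 142 CPM in sub-cluster 5 and 72.9 and 46.7 CPM in sub-cluster 6, and the lowest Phlda2 level was 2156 CPM, in sub-cluster 6. Krt8 was at 987 CPM and Kdr at 16.7 CPM in sub-cluster 4, at 247 and 301 CPM in sub-cluster 2, and at 235 and 114 CPM in sub-cluster 7. After thinning, Etv2 was found in 53.1% of 448 members with Krt19 (48.4 to 57.8%) and 53.2% of 756 without it (49.5 to 56.8%), with overlapping intervals. At full depth the intervals did not overlap, at 68.9% (65.5 to 72.2%) with Krt19 and 60.2% (55.9 to 64.3%) without it. The pooled Etv2 levels of these full-depth sets were 332 and 298 CPM, and their median depths 27021 and 23748 UMIs.

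The remaining 3 sub-clusters stood apart by depth or by the pooled level of transcripts of other cells. Sub-cluster 1 (273 cells) was led by Hbb-bh1, Hba-x, Hba-a1, Blvrb and Psme2. It had 579 CPM of Hbb-bh1 against 54.5 to 62.6 CPM in each of the other 6. A Hbb-bh1 UMI was found in 81.0% of its cells and in 46.9 to 87.6% in the other 6. The share of cells with Hbb-bh1 thus did not set it apart, and 4 of its cells lay in cluster 18, which globin genes led. Other levels in sub-cluster 1 included 152 CPM of Tbx4, 322 CPM of Hand1 and 64.3 CPM of Hoxc10. Sub-cluster 5 (162 cells) was led by Rpgrip1, Notch2, Slc24a5, Kdm6b, Slc39a1 and Ric1 and had a median of 11328 UMIs per cell. Its Notch2 level was 216 CPM, and 153 of its cells lay in the shallow cluster 16. Sub-cluster 6 (113 cells) had a median of 42016 UMIs per cell, was spread over 16 of the library's clusters and was led by Fst, Ptn, Lefty2, Tnnt2, Arg1 and Meox1. It had 101 CPM of Tnnt2 and 108 CPM of the paraxial gene Tcf15, against 3.63 to 8.46 CPM and 4.43 to 15.4 CPM in the other 6, and 75 of its cells were among the 89 members with the highest doublet scores. The part of these 3 sub-clusters in the member averages was not tested, but without sub-cluster 6 the counts over all genes were 361 higher and 1174 lower, and all 122 named genes past 2-fold stayed past it.

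**Figure D4:**
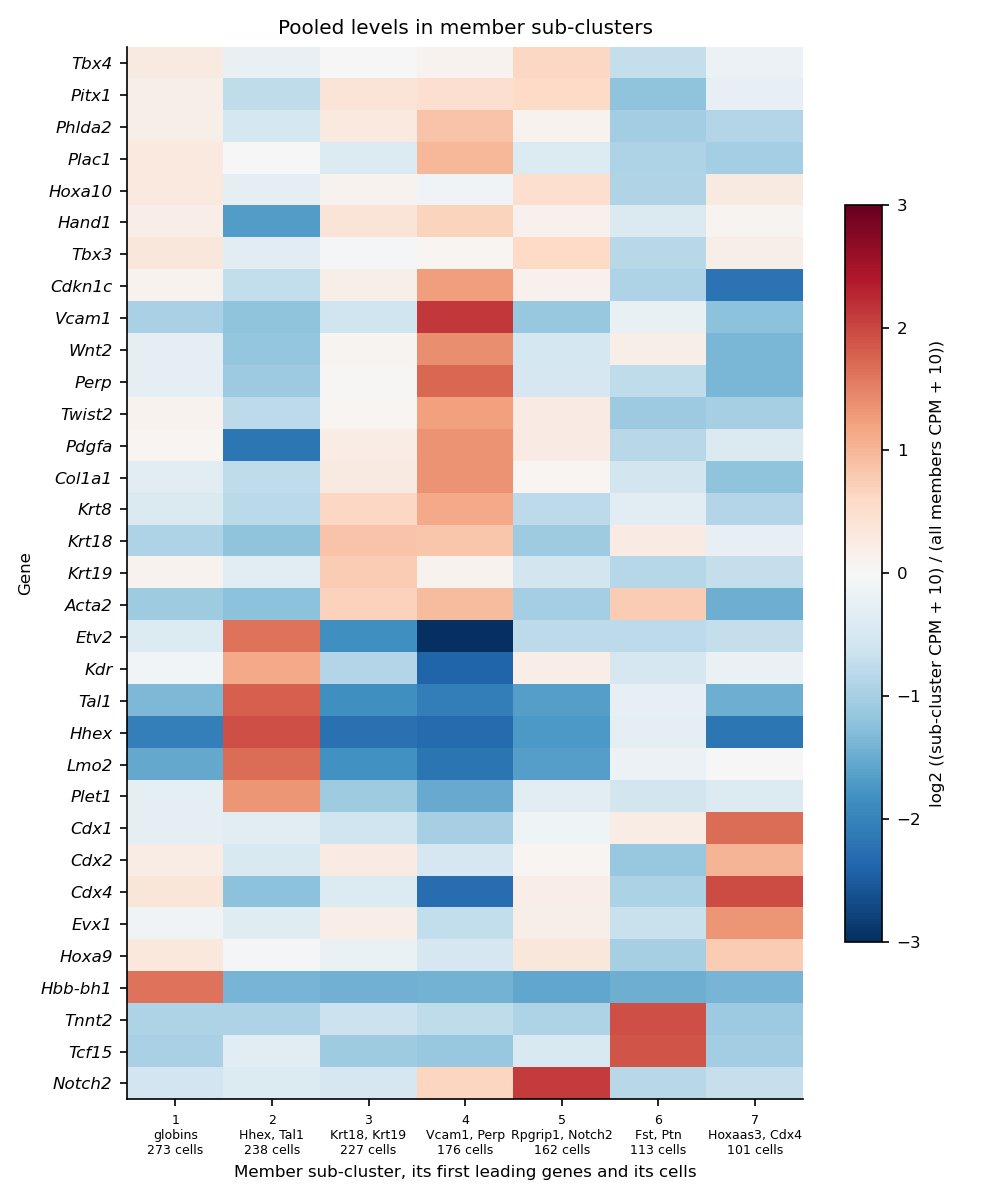
Pooled level of 33 genes (rows) in each of 7 member sub-clusters (columns), as the log2 ratio of the sub-cluster's CPM to that of all members after adding 10 CPM to both. Red is above and blue below the member average. Etv2, Kdr and Tal1 are high in sub-cluster 2 and low in sub-cluster 4, where Vcam1, Perp, Wnt2 and Cdkn1c are high, and Cdx1 and Cdx4 are high in sub-cluster 7.

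The same rule found 0 cells of 2954 at E8.25, which allows up to 0.102%, 0 of 4052 at E9.5, which allows up to 0.074%, and 2 of 8042 at E10.5 (0.025%, 0.003 to 0.090%). Both E10.5 cells had 1 UMI each of Tbx4, Phlda2 and Plac1 and none of Pitx1 or Hoxa10, in 31058 and 53553 UMIs. After thinning to 10000 UMIs the rule found 896 of 6625 cells at E8.0 (13.5%) and 0 at each later stage. Neither Tbx4 nor Hoxa10 had a single UMI in the E8.25 library, whose cells were the deepest of the 4, which allows up to 0.027 CPM for each. In stage order Pitx1 was at 59.2, 4.58, 1.21 and 1.28 CPM and Phlda2 at 1376, 197, 18.6 and 4.76 CPM. Tbx4 was detected again at E9.5, with 18 UMIs in 18 cells (0.24 CPM, 0.14 to 0.38), and stood at 3.06 CPM at E10.5, where 373 cells had a UMI, of which 334 had none of the 4 other markers.

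Other transcripts that marked the members were also missing or rare later. Hoxa11, Hoxa13, Hoxc11 and Hoxd11 had no UMI at E8.25, and Hoxc10 had 2 UMIs there against 1776 at E8.0. Cdx2 went from 61.1 CPM to 3.69 CPM between the first and the second stage and had no UMI in the last 2 libraries. Twist2, Cdkn1c and Tbx2, in contrast, were present throughout, Twist2 at 27.9, 21.5, 48.1 and 60.0 CPM and Cdkn1c at 538, 177, 754 and 831 CPM from E8.0 to E10.5. In such pooled levels fewer cells of a type and less RNA per cell cannot be told apart, and stage, library and dissection are the same variable here.

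**Figure D5:**
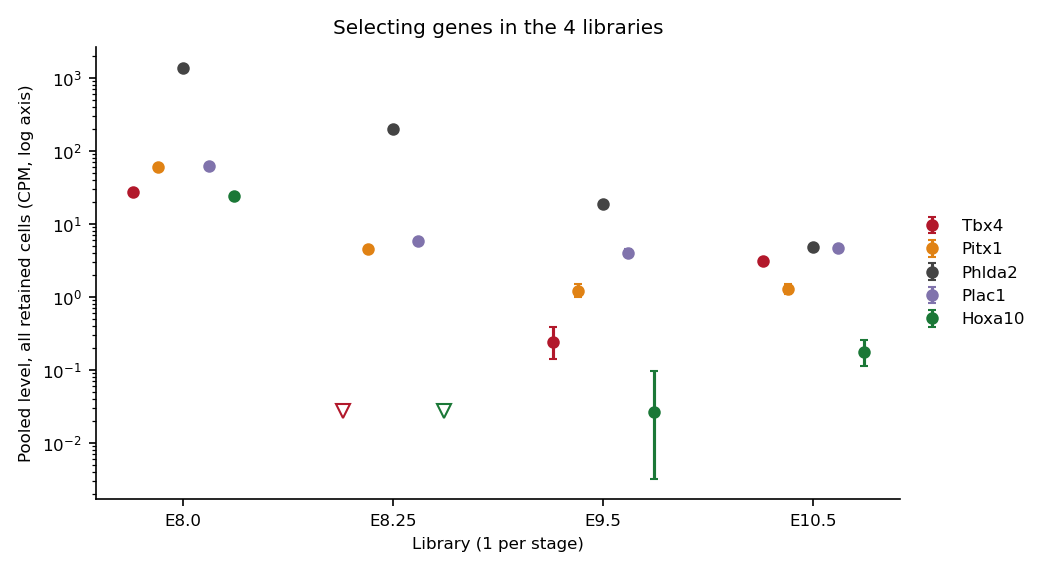
Pooled level in CPM (log axis) over all retained cells of the 5 marker genes of the rule in the library of each stage. Bars are exact Poisson 95% intervals, and open triangles mark the level of 3 UMIs where a library had none. Tbx4 and Hoxa10 are at 27.2 and 24.2 CPM at E8.0 and have no UMI at E8.25.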

How the data were processed

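Cells sorted for GFP were profiled with the 10x Chromium 3' kit, version 2. The authors deposited whole-number UMI counts per gene and filtered barcode, which the submitters' processing notes credit to Cell Ranger 3.1.0 with mm10. Each stage had 1 library, and only the E8.0 library entered comparisons between cells. Cells with 1000 or more genes and at most 10% mitochondrial UMIs were retained (4 E8.0 cells removed). Counts were summed over the cells of a group and divided by the group's total, giving CPM. Ratios had exact conditional binomial, CPM exact Poisson and shares Clopper-Pearson 95% intervals, with 3 UMIs as the limit for a 0. Genes at 1 CPM or more over all retained E8.0 cells were compared, and a gene counted as higher or lower from a point ratio of 2. Members were left out of the comparison groups, as were the other cells that met 2 or more comparison rules (553). Thinning drew 10000 UMIs per cell without replacement and left out 952 shallower E8.0 cells, 86 of them members. Clusters were found with scanpy 1.11.5 (Leiden on 2000 variable genes and 30 components, resolution 1, and 0.5 for members alone), and sub-clusters were left unnamed. Doublets were kept in the main values. Scrublet's own threshold marked 1.58% of cells, and an alternative removed the 459 cells of highest score.

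The members, the 25 gene lists and the rule for named genes were chosen with earlier results of these data known. Named were the selecting genes, the 20 highest and 10 lowest ratios, up to 8 genes per list with the largest ratio, list genes whose role is explained, 6 leading genes per sub-cluster and paralogues of the selecting genes. Spin2c, Pcgf5, Morc4, Gadd45g, Gja4 and the genes that split members by Vcam1 (Wnt2, Perp, Pdgfa) were named after their values were seen. Some genes that this rule takes are not reported here. The list of allantois markers holds only selecting genes and was not counted. Gene positions and promoters came from RefSeq tables of GRCm38.p6, with a chromosome for 94.5% of compared genes, and the ratio and its interval were tested on simulated data. Alternatives used other filters, scalings, members and references.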

Additional observations from a re-analysis of the deposited data

How the results depend on the processing

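The member share of 17.0% became 13.5% after thinning to 10000 UMIs, 12.5% when Tbx4 needed 2 UMIs, 15.8% with 3 of the 4 markers, 18.3% without the Cdh5 limit and 21.8% with 3 of 4 markers and no Tbx4 requirement, and it stayed within its counting interval under the other 3 settings (16.9 to 17.1%). The count of 328 higher and 1032 lower genes became 185 and 454 with a 5 CPM filter, which compared fewer genes (8867), and 1221 and 3531 with no filter beyond 3 UMIs, which compared more (18011). Under the other 9 settings it was between 316 and 453 higher and between 1022 and 1238 lower. Etv2 was the 1 named gene past 2-fold that changed direction, to -0.17 in members of the largest member cluster, an alternative added after seeing the data, as was leaving out sub-cluster 6. Of 122 named genes past 2-fold, 116 stayed past it against a reference without endothelial-like, haematoendothelial-like and erythroid-like cells and 118 against one without near-members. No paired analysis was possible because each stage has 1 library and the results come from no test. Without replicates, no difference here is set against variation between embryos. Genes under 1 CPM, and Tbx4 itself at a median of 3 UMIs per member, are limited by depth.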

Other observations

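Genes on the X chromosome were frequent among those higher in members, which is given as a value with no explanation. Of 397 X-linked genes compared, 33 (8.31%) were at least 2-fold higher in members than in the other E8.0 cells, against 288 of 10643 autosomal genes (2.71%), and no autosome was above 4.48%. Plac1, itself X-linked, was left out of this count as a selecting gene. The X-linked genes with the largest ratios were Nxf7 (3.1), the E3 ligase gene Rnf128 (2.73), Nup62cl (2.72), the angiomotin gene Amot (2.64), Spin2c (2.62) and Morc4 (2.60), chosen after their values were seen. Amot was at 465 CPM in members and 74.7 CPM in the other cells, and Spin2c at 461 and 75.1 CPM. The X-linked genes as a whole were not higher, with a median log2 ratio of -0.07 against -0.02 for autosomal genes. The X-linked share stayed between 7.56% and 9.82% under the 11 alternative settings, while the autosomal share was between 1.95% and 6.24%. It was 8.59% against 5.38% when the reference was the caudal Cdx cells and 10.1% against 3.73% when it was the haematoendothelial-like cells. Embryos of both sexes were pooled in the library, and the part of embryo sex in this count was not tested.

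Among X-linked genes at least 2-fold higher were also, again chosen after their values were seen, the homeobox gene Rhox5, at 9.45 and 4.64 CPM, the placental gene Nrk, at 14.4 and 2.92 CPM, the calpain-family gene Capn6, at 62.2 and 16.7 CPM, and the ephrin gene Efnb1, at 114 and 45.2 CPM.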
